A study of Mus musculus with 8 samples.

Results

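The single-copy Rhox genes are 9 reproductive homeobox genes of the mouse X chromosome, Rhox1, Rhox5, Rhox6, Rhox8, Rhox9, Rhox10, Rhox11, Rhox12 and Rhox13, chosen by name because earlier results of these data had shown Rhox RNA to be higher after loss of KDM1A. The table of 17589 genes had a row for 8 of them, and expression of Rhox12 was not analysed here. RNA was measured in 4 knockout and 4 control libraries of Oct4-GFP positive spermatogonia sorted from C57BL/6 mouse testes at 6 days after birth. The knockout mice are labelled as KDM1A knockouts, and the extraction protocol calls them Kdm1a-cKO. All 8 libraries came from mice of the GOF/deltaPE-Oct4/GFP reporter line, so the knockouts and the controls both carry that transgene. The labels name neither a Cre driver nor the deleted exons, and they do not state that libraries of a group came from separate animals, so the spread between libraries may be technical.

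Rhox genes encode homeodomain proteins, DNA-binding transcription factors, and are expressed mainly in testis, ovary, epididymis and placenta. They lie side by side in alpha, beta and gamma subclusters, and in mouse the alpha subcluster has been expanded by tandem duplications of Rhox2, Rhox3 and Rhox4. In tissues where they are off, DNA methylation, methylation of histone H3 at lysine 9 and linker histones have been reported at the cluster. KDM1A, also called LSD1, removes methyl groups from lysine 4 of histone H3.

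Along the X chromosome (GRCm38, the build also named mm10) the 9 genes span 916.2 kb from Rhox1 to Rhox13, 4 on the plus strand and 5 on the minus strand. Rhox1 stands 582.6 kb from Rhox5, and most of the multi-copy genes lie in that gap. Each of the 8 measured genes had a single transcript entry, annotated with 3 to 5 exons.

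The homeodomain is what these genes share, so the coding bases around its DNA-recognition helix are printed for the most abundant pair, Rhox10 and Rhox13, and for the pair most alike in sequence, Rhox6 and Rhox9. Each stretch is 39 bases of the longest open reading frame of the GENCODE M21 transcript, 5′ to 3′ on the gene's strand, and capitals mark the 7 codons that open with the tryptophan and phenylalanine of that helix.
Rhox6: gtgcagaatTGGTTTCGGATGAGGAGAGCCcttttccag
Rhox9: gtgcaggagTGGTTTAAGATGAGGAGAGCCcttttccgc
Rhox10: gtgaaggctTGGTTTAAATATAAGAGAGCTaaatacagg
Rhox13: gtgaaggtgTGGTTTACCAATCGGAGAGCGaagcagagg
All 9 members had this motif once. Rhox6 and Rhox9 were identical at 33 of 39 bases (84.6%), Rhox10 and Rhox11 at 32 of 39 (82.1%) and Rhox10 and Rhox13 at 28 of 39 (71.8%), while Rhox6 and Rhox13 matched at 20 of 39 (51.3%). Over whole transcripts, Rhox6 and Rhox9 shared 159 stretches of 50 bases, which were 16.5% of those in Rhox6 and 19.1% of those in Rhox9. Reads from those stretches can be assigned to either gene, so the split between Rhox6 and Rhox9 is uncertain. Of the 50-base stretches in Rhox8, 9.61% also occurred in transcripts of other genes outside the cluster. Rhox1, Rhox5, Rhox10, Rhox11 and Rhox13 shared none with another gene.

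DNA methylation acts on CG dinucleotides, so 2 promoter windows are shown with CG in capitals, the window with the most of them and the window with none among the 6 members that had a window. Rhox6, Rhox8 and Rhox9 had no window and their promoters were not analysed here. Both windows are RefSeq sequence on GRCm38.p6, from 250 bases before to 50 bases after the annotated start, printed on the gene's strand. The Rhox10 window lies at chrX:38066225-38066524 on the plus strand, and the Rhox1 window at chrX:37222209-37222508 on the minus strand.
Rhox10: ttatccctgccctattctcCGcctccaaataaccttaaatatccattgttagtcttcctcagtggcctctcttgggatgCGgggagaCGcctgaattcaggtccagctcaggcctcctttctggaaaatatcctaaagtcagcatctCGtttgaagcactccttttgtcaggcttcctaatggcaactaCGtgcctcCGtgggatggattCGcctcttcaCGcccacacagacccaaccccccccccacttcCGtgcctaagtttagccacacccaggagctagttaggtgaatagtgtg
Rhox1: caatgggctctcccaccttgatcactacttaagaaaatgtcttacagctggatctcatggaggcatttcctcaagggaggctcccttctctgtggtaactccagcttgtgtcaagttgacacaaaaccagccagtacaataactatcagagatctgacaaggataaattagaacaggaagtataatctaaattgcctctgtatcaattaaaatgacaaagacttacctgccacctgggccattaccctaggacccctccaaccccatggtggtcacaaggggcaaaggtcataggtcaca
Rhox10 had 9 CG dinucleotides, against a median of 7 over 32851 such windows, and 45.8% of all windows had at least as many. Rhox1 had 0, as did 5.4% of all windows. The table of windows also held Rhox5 with 5, Rhox11 with 7, Rhox12 with 3 and Rhox13 with 5. Methylation itself was not measured. The motif CGGAAG, the core bound by ETS factors, was found on either strand in the Rhox5 and Rhox10 windows and in 16.9% of all windows. AGAACA, a steroid receptor half-site, was found on either strand in the Rhox1, Rhox5 and Rhox13 windows and in 19.0% of all windows. The E-box CACGTG was in none of the 6 windows and in 7.15% of all, and GGGCGG on either strand was in the Rhox12 window alone and in 35.7% of all. These 4 motifs were chosen after the sequences had been seen, and no 2 of them overlapped in these windows. The Rhox5 window lies 50.2 kb before the start of the entry that was measured, which is coding sequence only. Rhox5 is known to use a distal and a proximal promoter, and these values do not say which was in use.

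Expression was given as FPKM, fragments scaled to transcript length and library size, so levels of different genes are compared per length. The 8 members together summed to 143, 203, 150 and 142 FPKM in knockout replicates 1 to 4, against 50.5, 49.0, 52.5 and 51.1 FPKM in control replicates 1 to 4. The groups did not overlap, and the ratio of the mean sums, 159 ± 29.4 in the knockouts and 50.8 ± 1.45 in the controls (SD, n = 4 each), was 3.14. Knockout replicate 2 was the highest library for the sum. In 7 of the 8 members every knockout value lay above every control value, and Rhox8 was the exception. Across all 13483 genes tested, 26.1% had such a pattern with the knockouts higher and 12.5% with the knockouts lower. Since the members were picked with this contrast known, their values describe them and are given with no test.

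**Figure D1:**
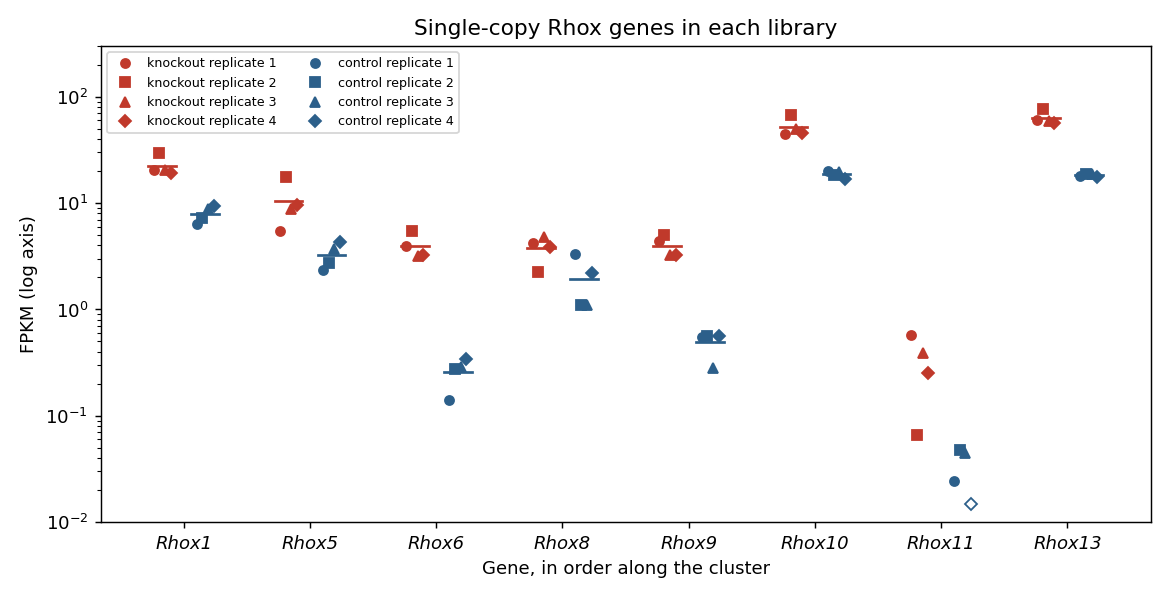
FPKM of each measured single-copy Rhox gene on a log axis, with a marker for each library, knockouts left of controls, and a bar at the group mean, which is left out for Rhox11. Rhox8 is the member whose groups overlap, and the open marker at the foot of the plot is the Rhox11 value listed at 0 in control replicate 4.

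Rhox1 (ENSMUSG00000071773, chrX:37213804-37222258, minus strand) is the measured single-copy gene of the alpha subcluster. It had 20.3, 29.6, 20.3 and 19.1 FPKM in the knockouts, against 6.34, 7.22, 8.79 and 9.39 FPKM in the controls. Every knockout library was higher than every control library, and knockout replicate 2 stood above the other knockouts, which lay close together. The means were 22.3 ± 4.89 and 7.93 ± 1.40 FPKM (SD, n = 4 each), a ratio of 2.81, or 2.51 without knockout replicate 2. On the log2(FPKM + 1) scale of the fit the difference was 1.38 (SE 0.16).

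Rhox5 (ENSMUSG00000095180, chrX:37804842-37808876, plus strand), once called Pem, is the founding gene of the family and in adult mouse testis is best known from Sertoli cells. It had 5.50, 17.6, 8.84 and 9.50 FPKM in the knockouts, against 2.33, 2.71, 3.73 and 4.35 FPKM in the controls. The groups did not overlap, but knockout replicate 1 was only 1.27 times the highest control, and the knockouts were the most spread of the 7 members given with a mean, with a coefficient of variation of 49.7%. The means were 10.4 ± 5.16 and 3.28 ± 0.925 FPKM (SD, n = 4 each), a ratio of 3.16 that was 2.42 without knockout replicate 2, and the log2 difference was 1.33 (SE 0.29).

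Rhox6 (ENSMUSG00000006200, chrX:37826910-37829857, plus strand) and Rhox9 (ENSMUSG00000068048, chrX:37899097-37901770, minus strand), once called Psx1 and Psx2, are close relatives known from mouse placenta and embryonic germ cells. Rhox6 had 3.92, 5.47, 3.21 and 3.23 FPKM in the knockouts, against 0.140, 0.275, 0.285 and 0.341 FPKM in the controls. Every control library was near the bottom of the measured range, and the lowest knockout was 9.42 times the highest control. The means were 3.96 ± 1.06 and 0.260 ± 0.0851 FPKM (SD, n = 4 each), the largest ratio among the 7 members in the fit at 15.2, or 13.3 without knockout replicate 2.

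Rhox9 had 4.37, 5.01, 3.26 and 3.28 FPKM in the knockouts, against 0.553, 0.562, 0.283 and 0.565 FPKM in the controls. All knockouts were again higher, and control replicate 3 was the lowest control. The means were 3.98 ± 0.859 and 0.491 ± 0.139 FPKM (SD, n = 4 each), a ratio of 8.11, or 7.41 without knockout replicate 2. In the knockouts Rhox6 stood at 0.990 ± 0.0797 of the Rhox9 level, whereas in the controls the ratio ran between 0.253 and 1.01. The log2(FPKM + 1) differences, 1.96 (SE 0.15) for Rhox6 and 1.73 (SE 0.14) for Rhox9, understate changes of genes this low. With a pseudocount of 0.1 they were 3.49 for Rhox6 and 2.80 for Rhox9. Both genes reached the mean of 1 FPKM needed for the fit through the knockouts alone, and any gene that does so has to be higher there.

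Rhox8 (ENSMUSG00000064137, chrX:37874778-37878944, minus strand) is known in mouse testis from Sertoli cells, the somatic nurse cells of the seminiferous tubule. It had 4.23, 2.26, 4.85 and 3.89 FPKM in the knockouts, against 3.34, 1.11, 1.10 and 2.18 FPKM in the controls. The groups overlapped, since knockout replicate 2 lay below control replicate 1. The means were 3.81 ± 1.11 and 1.93 ± 1.06 FPKM (SD, n = 4 each), a ratio of 1.97, or 2.24 without knockout replicate 2. The log2 difference of 0.75 (SE 0.26) was the smallest of the 7.

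Rhox10 (ENSMUSG00000053909, chrX:38066475-38071691, plus strand) acts in germ cells and is needed in mouse for building up the pool of spermatogonial stem cells. It had 44.3, 66.9, 50.0 and 45.2 FPKM in the knockouts, against 20, 18.5, 19.4 and 16.9 FPKM in the controls. Every knockout was more than double every control, the narrowest ratio being 2.21. The means were 51.6 ± 10.5 and 18.7 ± 1.35 FPKM (SD, n = 4 each), a ratio of 2.76, or 2.49 without knockout replicate 2, and the log2 difference was 1.40 (SE 0.13). Among the 6 members with a promoter window, Rhox10 had the most CG dinucleotides and Rhox1 none, and their ratios were 2.76 for Rhox10 and 2.81 for Rhox1. Rhox5 and Rhox13, with 5 CG dinucleotides each, had ratios of 3.16 and 3.46. A link between CG count and change was not tested.

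Rhox13 (ENSMUSG00000050197, chrX:38121219-38129967, plus strand) encodes a germ cell protein that in mouse appears as spermatogonia differentiate. It had 60.0, 76.2, 58.7 and 57.2 FPKM in the knockouts, against 17.8, 18.6, 18.9 and 17.4 FPKM in the controls. The controls lay within a narrow band, and the lowest knockout was 3.03 times the highest of them. The means were 63.0 ± 8.90 and 18.2 ± 0.683 FPKM (SD, n = 4 each), a ratio of 3.46, or 3.22 without knockout replicate 2, and the log2 difference was 1.73 (SE 0.10).

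Rhox11 (ENSMUSG00000051038, chrX:38076594-38085141, minus strand) was close to the limit of detection and did not enter the fit. It had 0.577, 0.0666, 0.386 and 0.251 FPKM in the knockouts, against 0.0244, 0.0478 and 0.0451 FPKM in control replicates 1 to 3 and a listed 0 in control replicate 4. At the depth inferred for each library these values correspond to 24, 2, 15 and 8 fragments in the knockouts and to 1, 2, 2 and 0 in the controls. The groups did not overlap, but knockout replicate 2 and control replicates 2 and 3 rest on 2 fragments each, too few to tell them apart. Among the 4106 genes under the limit of the fit, 28.8% likewise had all knockout values above all control values.

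In order of level, Rhox13 and Rhox10 led in both groups, and the libraries of each overlapped those of the other in the knockouts and in the controls. Rhox1 and then Rhox5 followed. Below them Rhox9, Rhox6 and Rhox8 overlapped one another in the knockouts, whereas in the controls Rhox8 overlapped Rhox5 and lay above Rhox9 and Rhox6. Rhox10 and Rhox13 together made up 70.5% to 72.8% of the summed FPKM in the knockouts and 67.1% to 75.7% in the controls. Rhox13 relative to Rhox10 was 1.35, 1.14, 1.17 and 1.27 in the knockouts, against 0.890, 1.01, 0.974 and 1.03 in the controls. This ratio within libraries did not overlap between the groups, with means of 1.23 ± 0.0968 and 0.975 ± 0.0609 (SD, n = 4 each).

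**Figure D2:**
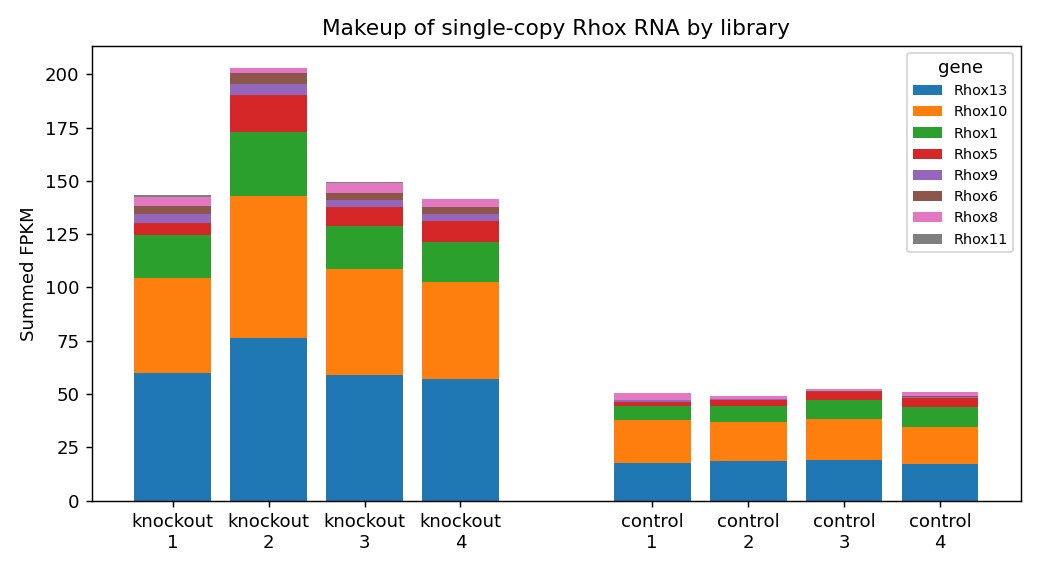
Summed FPKM of the 8 measured single-copy Rhox genes in each library, stacked by gene, with the 4 knockouts left of the 4 controls. The knockout bars reach 142 to 203 FPKM and the control bars 49.0 to 52.5 FPKM, with Rhox13 and Rhox10 as the main layers in all of them.

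The library of knockout replicate 2 differed from the others in general. It had 1642 transcript entries at 0, against 506 to 734 in the other 7 libraries, and it was the highest knockout library for 6 of the 8 members and for 47.7% of all genes tested. Rhox8 and Rhox11 were the members for which it was the lowest knockout. Inferred depth was 45000000 to 62875000 fragments in the knockouts and 60750000 to 67125000 in the controls. A single small RNA, Mir5105, made up 29.4% to 52.7% of all FPKM in the knockouts and 61.3% to 77.1% in the controls. The lowest depth, 45000000, and the lowest Mir5105 share, 29.4%, were both those of knockout replicate 2. Kdm1a itself had 14.2, 14.1, 17.3 and 14.9 FPKM in the knockouts, against 53.7, 54.0, 92.0 and 48.1 FPKM in the controls, and fell (log2 change -1.92, SE 0.18, limma adjusted p = 6.88e-05). Its summed FPKM do not say which exons were read, so they check the labels and not the deletion.

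Across the 13483 genes tested, limma called 3417 as higher (25.3%) and 1635 as lower (12.1%) in the knockouts, 37.5% in either direction, with a median log2 change of 0.09. With median-ratio scaling the calls were 2748 higher and 2323 lower. With small RNAs removed before equal totals they were 2743 higher and 2042 lower, with a median of 0.01. At equal FPKM totals with the small RNAs kept they were 9808 higher and 147 lower, with a median of 0.74. The 7 members in the fit had a median log2 difference of 1.40, and their differences were above 0 under all 17 alternative settings that gave a value. Some of those settings cannot change a member's difference, and the members were chosen with this contrast known, so the kept sign is a description.

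Because Rhox5 and Rhox8 are also Sertoli genes, they are set beside 15 Sertoli markers, all of which were in the table. The markers summed to 69.0, 33.5, 90.2 and 80.4 FPKM in the knockouts, against 74.0, 26.1, 27.3 and 34.0 FPKM in the controls. Of the 13 that were tested, Tsx rose and 12 did not pass the test, and their median log2 change was 0.52. Over all genes tested, 25.3% rose, with a median of 0.09. Without knockout replicate 2, 7 of the 13 rose, and without control replicate 1, 4 rose. None rose without knockout replicate 3, knockout replicate 4 or control replicate 3, and at equal FPKM totals 11 rose. Of all genes, 3816 of 13455 rose without knockout replicate 2, 2821 of 13540 without control replicate 1, and 9808 of 13781 at equal FPKM totals. Defining Sertoli markers were low but present: Sox9 averaged 0.767 ± 0.260 and 0.517 ± 0.231 FPKM, and Amh 4.63 ± 2.10 and 2.35 ± 1.41 FPKM, in knockouts and controls (SD, n = 4 each). The 4 libraries with high Sertoli sums, knockout replicates 1, 3 and 4 and control replicate 1, were also the 4 with the most Rhox8. Knockout replicate 2 and control replicate 4, with sums of 33.5 and 34.0 FPKM, had 2.26 and 2.18 FPKM of Rhox8. Knockout replicate 1 and control replicate 1, with sums of 69.0 and 74.0 FPKM, had 4.23 and 3.34 FPKM of Rhox8. Rhox5 did not follow this order, since knockout replicate 2 had the most Rhox5 at a low Sertoli sum. The sums form 2 separate clusters of libraries, so no correlation is given, and the part of Sertoli cells in the Rhox8 and Rhox5 values was not tested. In bulk samples, fewer cells of a type and less RNA per cell cannot be told apart.

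**Figure D3:**
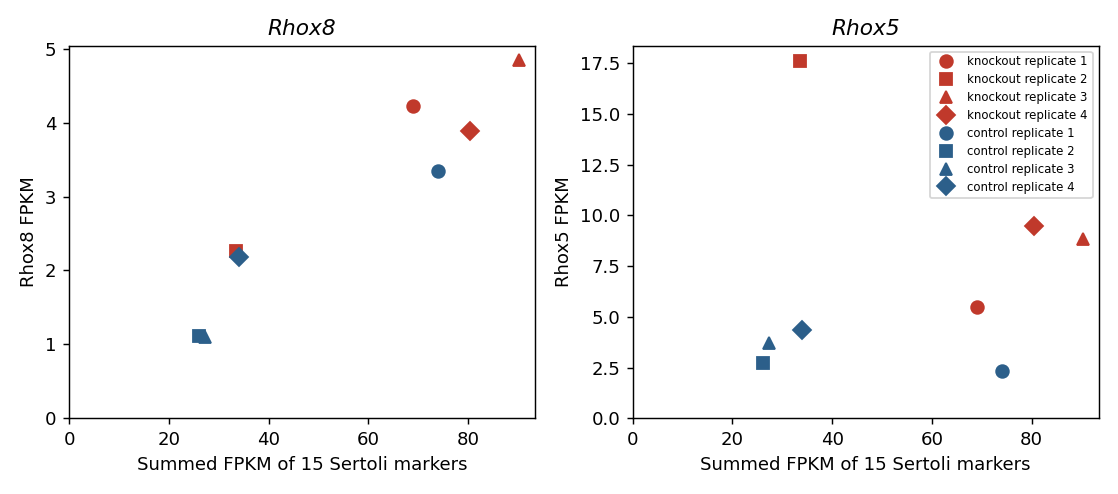
FPKM of Rhox8 (left) and Rhox5 (right) against the summed FPKM of 15 Sertoli markers, with a marker for each library, knockouts in red and controls in blue. Rhox8 is highest in the 4 libraries with sums of 69.0 to 90.2 FPKM, whereas Rhox5 is highest in knockout replicate 2 at a sum of 33.5 FPKM.

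Germ cell markers were abundant in every library, with 12 genes summing to 1346.2 to 1598.6 FPKM in the knockouts and 1332.6 to 1452.9 FPKM in the controls, and 3 of them rose and 3 fell. Of 13 markers of undifferentiated spermatogonia none rose and 9 fell, with a median log2 change of -0.67. The lists overlap, and the 3 germ cell markers that fell are among these 9. Of 9 markers of differentiating spermatogonia, some of which are also on the germ cell list, 4 rose, 5 were not called and none fell, with a median of -0.03. Over all genes tested, limma called 25.3% as higher and 12.1% as lower, with a median of 0.09. At equal FPKM totals the counts were 2 rising and 2 falling for the undifferentiated list and 7 rising for the differentiating list, and among the germ cell markers 7 rose and 1 fell. Endothelial markers summed to 12.6 to 13.3 FPKM in the knockouts and 5.11 to 6.70 FPKM in the controls. Pecam1 and Tek rose among the 4 tested, all 4 of which rose at equal FPKM totals. Pecam1 averaged 4.55 and 1.39 FPKM and Tek 4.13 and 1.05 FPKM in knockouts and controls. Cdh5 (2.08 and 1.86 FPKM) and Vwf (1.35 and 1.07 FPKM) were not called, and Kdr (0.833 and 0.811 FPKM) was not tested. The difference in the sum thus lay mainly in Pecam1 and Tek and not in all endothelial markers. The 2 Leydig, 2 peritubular myoid and 1 macrophage markers tested did not pass, although 1 Leydig and 1 myoid marker rose at equal FPKM totals. The part of these shifts in the Rhox values was not tested.

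The multi-copy genes of the cluster, which form the rest of the Rhox family, showed the same direction. All 19 copies of Rhox2, Rhox3, Rhox4 and Rhox7 in the table had every knockout value above every control value. Of all genes tested 26.1% had this pattern, as did 28.8% of genes under the limit of the fit. The ratios of mean FPKM of the 19 copies ran from 1.99 to 10.6, with a median of 4.6. Their highest mean was 29.8 FPKM in the knockouts and 7.82 FPKM in the controls, both below Rhox10 and Rhox13. Near-identical copies share reads, so values of single copies are uncertain and the 19 copies are not 19 separate observations. Of the 19, 7 had control means under 1 FPKM. The 4 Rhox pseudogenes in the table also had all knockouts above all controls.

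Genes flanking the cluster shared this direction in part. Of 27 other genes tested within 1 Mb on either side, 14 rose and none fell (limma adjusted p under 0.05), and their median log2 change was 0.41. The count that rose was 9 without knockout replicate 3, without control replicate 2 and without control replicate 3, it was 7 of 20 genes averaging at least 5 FPKM and 25 at equal FPKM totals, and without knockout replicate 1 it was 12 with 2 that fell. On the Rhox1 side 12 of 19 rose. Next to Rhox1, Gm9 at 2.8 kb had 5.21 ± 0.681 FPKM in the knockouts and 5.17 ± 1.35 FPKM in the controls and was not called. Further out, Rnf113a1 at 21.3 kb rose (2.13 ± 0.137 and 0.847 ± 0.233 FPKM in knockouts and controls), as did Ndufa1 at 22.6 kb (103 ± 7.0 and 46.0 ± 3.26 FPKM), which encodes a subunit of respiratory complex I. On the Rhox13 side 2 of 8 rose. The nearest of these, Zbtb33 at 59.8 kb, which encodes the methyl-CpG binding protein Kaiso, had 20.1 ± 6.24 FPKM in the knockouts and 28.0 ± 3.73 FPKM in the controls and was not called, nor were Tmem255a at 66.6 kb and the processed pseudogene Gm4853 at 267.0 kb. All values are means ± SD with n = 4 each. Over the whole X chromosome outside Rhox, 281 of 583 genes tested rose (48.2%), against 3073 of 12653 autosomal genes (24.3%), a difference that was not tested.

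**Figure D4:**
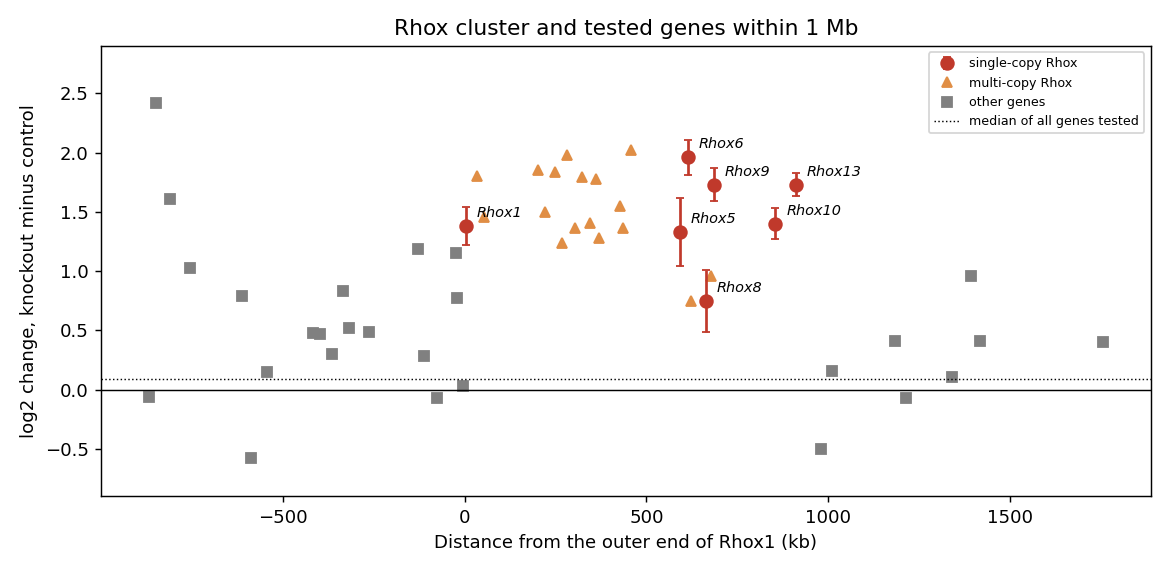
Difference in log2(FPKM + 1) between knockouts and controls against distance from the outer end of Rhox1, for tested Rhox genes and other genes within 1 Mb; error bars on the single-copy genes are the SE of the limma fit and the dotted line is the median of all genes. The single-copy genes lie between 0.75 and 1.96, while the other genes have a median of 0.41, and the highest grey square, the small nuclear RNA gene Gm25047 at 2.42, did not pass the test.

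DNA methylation is reported to silence the cluster. Of 12 tested genes that write, read or remove it, or act with those that do, Dnmt3l rose and none fell. Over all genes tested, 25.3% rose and 12.1% fell. The list median was -0.15, beside 0.09 for all genes. At equal FPKM totals 5 rose and the list median was 0.52, beside 0.74 for all genes, and without knockout replicate 1 or without control replicate 4, 2 of them fell. Dnmt3l, the catalytically inactive partner of the de novo methyltransferases, had 6.43 ± 0.732 FPKM in the knockouts and 1.35 ± 0.129 FPKM in the controls (SD, n = 4 each; log2 change 1.66, SE 0.10, limma adjusted p = 9.03e-06). The maintenance methyltransferase Dnmt1 averaged 99.1 ± 10.8 and 113 ± 14.8 FPKM in knockouts and controls and was not called (limma adjusted p = 0.223).

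Among genes of H3K9 methylation and linker histones, 3 of 10 tested rose and 2 fell, beside 25.3% and 12.1% of all genes tested. At equal FPKM totals 6 of the 10 rose and none fell, beside 9808 of 13781 genes that rose and 147 that fell. Ehmt2, which encodes the H3K9 methyltransferase G9a, fell to 106 ± 15.1 FPKM in the knockouts, against 166 ± 16.1 FPKM in the controls (SD, n = 4 each, limma adjusted p = 0.002). The log2 change of Ehmt2 was 0.07 with equal FPKM totals, where the median of all genes was 0.74. With small RNAs removed before equal totals it was -0.75 (limma adjusted p = 0.000465). Its partner Ehmt1 fell by 0.30 on the log2 scale (SE 0.08, limma adjusted p = 0.0184), a call that did not hold with equal FPKM totals, with the replicate block (adjusted p = 0.0618), with the most abundant transcript entry alone or without control replicate 1. The linker histone genes Hist1h1a (log2 change 0.83, SE 0.15) and H1f0 (0.44, SE 0.10) rose, with limma adjusted p of 0.00214 and 0.00752. Hist1h1a belongs to a family of near-identical, mostly non-polyadenylated transcripts, so its FPKM are uncertain in an mRNA library.

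Of 9 tested transcription factors reported at Rhox promoters, none rose and Ets2 fell (limma adjusted p = 0.00289). Over all genes tested, 25.3% rose and 12.1% fell. Ets2 had 1.93 ± 0.321 FPKM in the knockouts and 3.35 ± 0.316 FPKM in the controls (SD, n = 4 each). It was not called with equal FPKM totals. With small RNAs removed before equal totals its log2 change was -0.64 (limma adjusted p = 0.00553). At equal FPKM totals 5 of the 9 rose and none fell, beside 9808 of 13781 genes that rose. Without knockout replicate 2, 1 of the 9 rose and 2 fell, and without knockout replicate 1 none rose and 2 fell. Of the reported targets of RHOX proteins, Zbtb16, which encodes the stem cell factor PLZF and is also a marker of undifferentiated spermatogonia, fell to 22.3 ± 7.21 FPKM in the knockouts, against 61.2 ± 7.62 FPKM in the controls (SD, n = 4 each; log2 change -1.47, SE 0.22, limma adjusted p = 0.00089). Dmrt1 averaged 182 ± 7.19 and 199 ± 12.1 FPKM in knockouts and controls and was not called (limma adjusted p = 0.258).

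Of 35 homeobox genes outside the Rhox cluster that were tested, 9 rose and 5 fell, with a median log2 change of -0.01; the share that rose is close to the 25.3% of all genes. At equal FPKM totals 21 of 38 rose and none fell, with a median of 0.61. The X-linked gene Esx1, a homeobox gene of testis and placenta, had 58.5 ± 18.5 FPKM in the knockouts and 5.87 ± 1.87 FPKM in the controls (log2 change 3.11, SE 0.26, limma adjusted p = 3.38e-05). Pbx3, which encodes a cofactor of other homeodomain proteins, rose to 10.7 ± 0.686 FPKM in the knockouts, against 4.03 ± 0.838 FPKM in the controls (SD, n = 4 each; log2 change 1.23, SE 0.13, limma adjusted p = 0.000103). Pbx2 fell by 0.61 (SE 0.07, limma adjusted p = 0.000232). Its log2 change was 0.10 with equal FPKM totals and -0.71 with small RNAs removed before equal totals (limma adjusted p = 5.59e-05).

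The genes outside Rhox whose pattern over the 8 libraries was most like the mean of the members' standardised log2 values were Gml, Plac8, Hrsp12, Mageb2 and Hormad1, with Pearson r of 0.998 to 0.999. They share with the members the step between the groups, which dominates such an r, and the same libraries. Plac8 had 29.5 ± 7.41 FPKM in the knockouts and 1.42 ± 0.500 FPKM in the controls, and Hormad1, a protein of meiotic chromosome axes, 103 ± 12.8 and 37.0 ± 2.72 FPKM (SD, n = 4 each). With each group's mean taken out, the most alike were Thoc3, Cutc and Gtf2f2, with r of 0.990 to 0.992. Thoc3 averaged 52.8 ± 6.74 FPKM in the knockouts and 51.0 ± 1.37 FPKM in the controls, so it shared the deviations within groups and not the step between them. Its spread lay mainly in the knockouts, where replicate 2 was the highest library for 47.7% of all genes tested. The part of that library in these r was not tested.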

How the data were processed

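RNA came from 8 libraries, 4 knockout and 4 control. Per the labels' protocols, RNA was extracted with a PicoPure kit and libraries were made with a stranded mRNA kit. The authors deposited FPKM for 45550 transcript entries; the tools were TopHat and Bowtie, then Cufflinks and Cuffdiff, on mm10, per the submitters' processing notes, which give no versions. Cufflinks divides fragments among similar transcripts, and FPKM depend on the library total, which a few abundant RNAs can shift.

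Entries were summed to 17589 genes by gene identifier, and positions came from GENCODE M21 (17257 genes matched). The 13483 genes averaging 1 FPKM or more were tested on log2(FPKM + 1), pseudocount 1, with limma 3.58.1 in R 4.3.3 (lmFit, eBayes with trend, group only, two-sided, Benjamini-Hochberg threshold 0.05). The fit was tested on simulated data. The 7 members in the fit are described and not tested. Members and lists were chosen with earlier results of these data known. Named genes were the members, Kdm1a, the nearest 3 tested genes on each side, up to 4 called genes of each list by adjusted p, and the genes most alike in pattern. Dnmt1, Dmrt1, Sox9, Amh, Tsx, Pecam1, Tek, Cdh5, Vwf, Kdr, Mir5105 and Gm25047 were named after their values were seen. A gene within this rule is not reported here.

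Depth is unknown from the labels. It was inferred from low FPKM as whole multiples of a fragment in genes with a transcript over 600 bases, with 62.0% to 67.0% of values no more than 0.1 fragment off a whole number (20% by chance), and serves as a description only. Alternatives covered pseudocount, filter, scaling, trend, replicate block, transcript entries and each library left out.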

Additional observations from a re-analysis of the deposited data

Results flagged for a closer look

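In 3 of the 16 groups of 4 libraries examined, a library lay farther from the nearest other than Dixon's critical value for 4 samples allows, where chance flags about 1 in 20 groups. Rhox1 in knockout replicate 2 was 29.6 FPKM, a gap of 0.881 of the range. Rhox13 in the same library was 76.2 FPKM, a gap of 0.854 of the range. Rhox9 in control replicate 3 was 0.283 FPKM, below the other controls by 0.958 of the range and resting on about 14 fragments at the inferred depth. Without knockout replicate 2, Rhox1 averaged 19.9 ± 0.701 FPKM and Rhox13 58.6 ± 1.39 FPKM in the knockouts (SD, n = 3), against 7.93 ± 1.40 and 18.2 ± 0.683 FPKM in the controls (SD, n = 4).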

How the results depend on the processing

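The members' log2 differences kept their sign in all 116 combinations of member and alternative setting, and 107 moved by less than the spread between replicates. The filters, trend, replicate block and choice of transcript entry cannot change a member's difference, so part of both counts was fixed in advance. The members were also chosen with this contrast known, so the kept sign is a description. With equal FPKM totals they ranged from 1.29 (Rhox8) to 2.43 (Rhox13), and leaving out each library in turn gave 0.61 to 0.96 for Rhox8, 1.06 to 1.57 for Rhox5 and 1.64 to 1.77 for Rhox13. The count of members with groups that did not overlap was 7 or 8 in the scalings and leave-outs tried, and 8 at equal FPKM totals, without knockout replicate 2 and without control replicate 1. A mean of at least 5 FPKM gave 2164 genes that rose, since fewer genes were tested. Equal FPKM totals gave 9808 that rose and 147 that fell, and moved the median of all genes to 0.74. Leaving out each library gave 2621 to 3816 that rose and 1165 to 2034 that fell. Of 302 combinations for 18 named genes outside the members, 288 kept the call or stayed uncalled. With the sign kept, 4 lost the call and 6 gained it. In the other 4 the sign turned, all with equal FPKM totals. Ehmt2 (0.07), Ehmt1 (0.40) and Pbx2 (0.10) lost their call there. Dmrt1 (0.60), uncalled in the main fit, was called as higher there. Among the 288, the sign of an uncalled gene turned in 6, in Gm9, Zbtb33 and Tmem255a. The replicate block gave 2983 that rose and 1408 that fell. Deviations of libraries with the same number correlated at 0.224, -0.119, -0.133 and -0.093, and those with different numbers at -0.333 to 0.25. So few values cannot decide whether the numbers pair the libraries. FPKM under 1, such as Rhox11 and the control values of Rhox6 and Rhox9, rest on few fragments.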
